A study of Homo sapiens with 12 samples.

Results

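The amyloid precursor protein gene APP, its homologues APLP1 and APLP2, and 5 genes that encode enzymes or subunits cutting their products were followed in liver and intestinal cancer cells exposed to a seaweed extract. The 8 genes (APP, APLP1, APLP2, ADAM10, BACE2, PSENEN, APH1A and NCSTN) are 8 of the 57736 genes in the count files, and 27326 of those had a count in some library. They were taken by name, and were chosen by the fold changes and levels these same libraries gave in HepG2, in Ls174 and between the lines. Their values in those comparisons are therefore a description and carry no test.

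APP and its homologues are membrane proteins with a large outer part and a short inner tail. Alpha-secretases such as ADAM10, or beta-secretases such as BACE1, shed the outer part, and gamma-secretase then cuts the stub inside the membrane. The alpha cut lies within the amyloid beta sequence of APP, whereas a beta cut followed by a gamma cut releases that peptide. Gamma-secretase joins a catalytic subunit with nicastrin, an APH1 protein and PEN-2. In epithelial cells these proteases also process Notch receptors, cadherins and CD44.

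The 12 libraries fall into 4 groups of 3. HepG2 is an established line from a liver cancer and Ls174 one from a colon cancer, both labelled as wild type and routinely kept in serum-containing medium. The methods of the study do not name the medium of the exposure for RNA, and its proliferation and cell death assays exposed cells without serum. Control cells received no treatment, and HME cells were cultured for 24 h with an extract of the macroalga Hypnea musciformis at the IC50, which the labels give as 0.7 mg/ml and the methods of the study put slightly higher. Each line is 1 cell population, the replicates are described as biological, and the comparison asks how gene expression responded to the extract in each line. In bulk RNA, fewer cells of a type and less RNA per cell cannot be told apart.

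The libraries held 1790841 to 3656662 counts. HepG2 control 2 and Ls174 control 1 stood apart from the other controls of their line. The chi-square of counts per degree of freedom was 49.06 and 54.1 in the pairs with HepG2 control 2, against 13.56 for the other pair, and 34.54 and 36.97 against 5.68 in Ls174. Hepatocyte markers summed to 11045 to 21813 CPM in HepG2 libraries and to at most 143 CPM in Ls174. Intestinal markers summed to 404 to 536 CPM in Ls174 and to 59.8 to 212 CPM in HepG2. The HepG2 sum was led by VIL1, with a mean of 135.7 CPM in control and 96.3 CPM in HME libraries, while CEACAM5 and MUC2 were at 0. Levels below are CPM, the counts relative to library size, scaled by the trimmed mean of M values (TMM), and fold changes and their standard errors (SE) come from edgeR fits on all tested genes.

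The assay reads the 3′ end of polyadenylated RNA, so the counts sit where a transcript stops. Of the 6747 APP counts, 97.0% fell in 1 region at chr21:27252664-27253980 (GRCh37, minus strand), 85.0% of which is 3′ untranslated sequence. The corresponding region of APLP2 lies at chr11:130013242-130014896 (plus strand), that of ADAM10 at chr15:58887206-58889840 (minus), that of BACE2 at chr21:42647309-42654642 (plus) and that of PSENEN at chr19:36237553-36238108 (plus). APH1A counts lie at chr1:150237607-150239044 (minus), NCSTN counts at chr1:160328062-160328939 (plus) and APLP1 counts at chr19:36369976-36370890 (plus). An untranslated part made up 94.2% of the region in BACE2, 94.3% in ADAM10, 82.5% in APLP2, 77.2% in NCSTN, 75.4% in PSENEN, 74.0% in APH1A and 38.7% in APLP1. The main regions of PSENEN and APH1A overlap regions of AC002398.11 and CA14 on the opposite strand, which held 11 and 26 counts in all, and whether reads were assigned by strand is not stated in the sources used here.

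The polyadenylation signals below are shown because the assay primes at the poly(A) tail that follows them. Capitals mark the hexamer AATAAA, replaced in NCSTN by the variant ATTAAA, in the 50 bases before the last annotated coding transcript end of the main region. All are read from GRCh37, 5′ to 3′ on the gene's strand. They lie at chr21:27252867-27252896 for APP, chr11:130014669-130014698 for APLP2, chr21:42654428-42654457 for BACE2, chr1:150237805-150237834 for APH1A and chr1:160328707-160328736 for NCSTN.
APP: tgttttcatgtaAATAAAtacattcttgga
APLP2: tttaaacacatcAATAAAtactttaacttc
BACE2: tttgtttatttgAATAAAtaatactcccaa
APH1A: gtgattttgactAATAAAaaagaatttgta
NCSTN: ataatgagtttcATTAAAatagattatccc
Between 12 bases (BACE2) and 20 bases (APLP2) separate these hexamers from the annotated end. AATAAA was also found for PSENEN and APLP1, and neither hexamer was found in that window for ADAM10.

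The sequence before the start sites is shown for APP, ADAM10 and APLP2, whose levels in Ls174 HME cells were wholly below the controls by over 2-fold. The set of RefSeq promoters used here (GRCh38.p14) holds 8 of 300 bases for 7 of the 8 genes, 2 of them for APP. It has no entry for BACE2. Printed are the 250 bases before each start, on the gene's strand. Capitals mark matches on either strand to the TATA box (TATAAA), the word CCAAT, the GC box (GGGCGG), the core bound by AP-1 (TGANTCA) or the E-box (CACGTG). The APP windows are chr21:26171129-26171378 for the upstream start and chr21:26170771-26171020 for the downstream start (minus strand), and those of APLP2 and ADAM10 are chr11:130070318-130070567 (plus) and chr15:58749708-58749957 (minus).
APP upstream start: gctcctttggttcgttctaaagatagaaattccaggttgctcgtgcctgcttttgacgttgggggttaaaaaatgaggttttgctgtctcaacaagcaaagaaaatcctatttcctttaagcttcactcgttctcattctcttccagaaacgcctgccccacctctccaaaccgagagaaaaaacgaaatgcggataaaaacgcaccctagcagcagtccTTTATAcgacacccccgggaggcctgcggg
APP downstream start: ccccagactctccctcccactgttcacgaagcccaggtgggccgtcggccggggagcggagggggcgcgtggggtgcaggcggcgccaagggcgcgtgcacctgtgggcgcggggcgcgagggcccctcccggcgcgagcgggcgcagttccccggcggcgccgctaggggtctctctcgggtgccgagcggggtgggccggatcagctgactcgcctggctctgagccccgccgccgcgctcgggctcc
APLP2: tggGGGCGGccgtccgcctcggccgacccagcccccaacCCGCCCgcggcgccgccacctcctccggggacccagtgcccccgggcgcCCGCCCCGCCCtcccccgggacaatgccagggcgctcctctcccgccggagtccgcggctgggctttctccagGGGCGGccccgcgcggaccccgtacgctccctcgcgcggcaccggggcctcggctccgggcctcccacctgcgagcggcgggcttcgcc
ADAM10: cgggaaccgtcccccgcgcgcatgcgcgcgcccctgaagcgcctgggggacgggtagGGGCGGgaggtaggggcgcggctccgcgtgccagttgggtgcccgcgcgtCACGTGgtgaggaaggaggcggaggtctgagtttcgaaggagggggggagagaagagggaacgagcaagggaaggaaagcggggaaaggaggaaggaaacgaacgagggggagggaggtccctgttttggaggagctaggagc
The upstream APP start had the TATA box from base -30, read on the opposite strand, and the AP-1 core from base 7 after the start, which 11.5% and 7.71% of 35116 promoters hold. The downstream APP start had no match to the 5 words. APLP2 had 5 GC boxes, 2 of which overlap by 1 base, and ADAM10 had 1 GC box and 1 E-box, against shares of 45.0% and 7.26% of all promoters. The word CCAAT, in 34.6% of all promoters, was matched in APH1A alone among these 8. GC content was 49.3% and 77.3% over the full APP windows, 80.7% in APLP2 and 68.0% in ADAM10, beside a median of 58.7% over all promoters. Counts at the 3′ end do not show which APP start was used.

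APP (ENSG00000142192), the precursor of amyloid beta, lay above its controls in HepG2 HME cells and below them in Ls174 HME cells. In HepG2 control cells it stood at 134.4, 125.7 and 118.9 TMM CPM (126 ± 7.79, SD, n = 3), and in HepG2 HME cells at 153.8, 338.2 and 272.8 (255 ± 93.5). All HME libraries were above all controls, with HME 1 close to them. In Ls174 the controls held 297.7, 327.0 and 348.4 TMM CPM (324 ± 25.5) and the HME cells 93.8, 112.0 and 104.5 (103 ± 9.17). The Ls174 groups lay far apart, and each HME library held 28.9% to 34.5% of the control mean.

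The fitted difference of APP was 1.02 on the log2 scale in HepG2 (SE 0.35), a fold of 2.03, and -1.65 in Ls174 (SE 0.19), 3.15-fold lower. The response in Ls174 minus that in HepG2 was -2.66 (SE 0.40). Untreated Ls174 cells had 2.51-fold more APP than untreated HepG2 cells, a log2 difference of 1.33 (SE 0.30). Over the 4 groups APP was ordered Ls174 control, HepG2 HME, HepG2 control and Ls174 HME, and only the first pair of neighbours had overlapping values. HepG2 HME 2, the library with the most APP, also had a mesenchymal marker sum of 867.5 CPM led by COL1A1, against 43.8 and 49.1 in the other HME libraries and 24.0 to 89.2 in controls, with DCN at 0 in HME. The log2 difference in HepG2 was 0.78 without that library. In HepG2 the hepatocyte marker sum moved with treatment too, from 15590 to 21813 CPM in control to 11045 to 12760 CPM in HME libraries, and its part in the result was not tested.

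**Figure D1:**
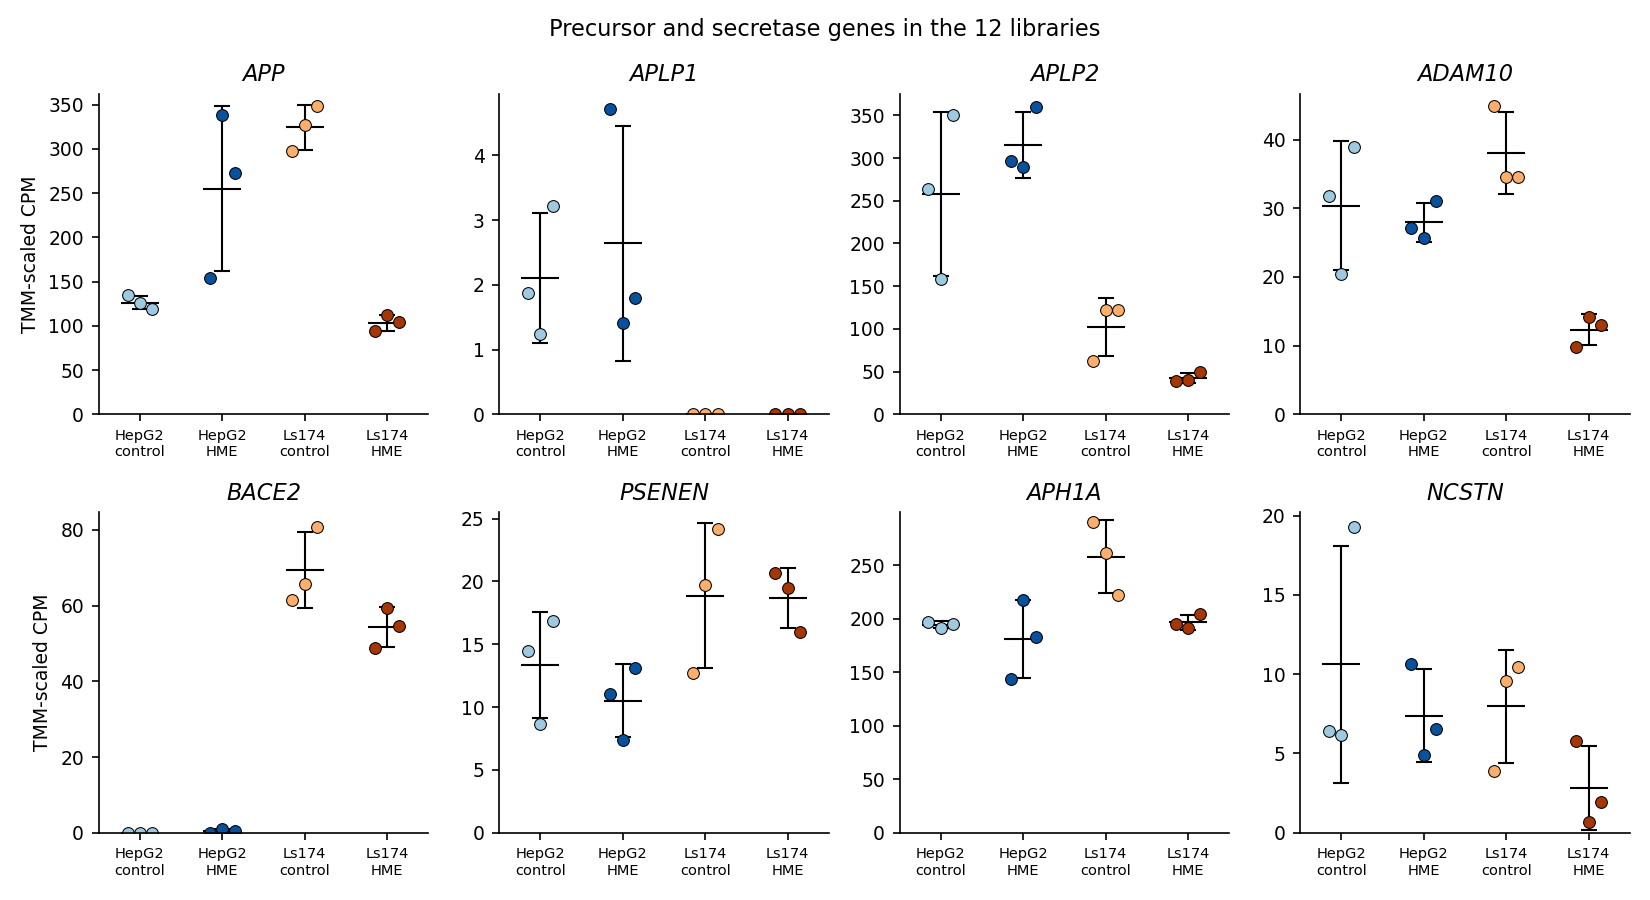
TMM-scaled CPM (y axis, linear from 0, its own range in each panel) of the 8 genes in HepG2 and Ls174 control and HME libraries; points are libraries, horizontal marks means and bars the SD (n = 3). APP was above the controls in all HepG2 HME libraries and below them in all Ls174 HME libraries, and BACE2 counts were nearly all in Ls174.

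APLP2 (ENSG00000084234), the homologue of APP that most tissues express, was higher in HepG2 than in Ls174. HepG2 controls held 263.5, 158.5 and 350.2 TMM CPM (257 ± 96.0) and HepG2 HME cells 296.1, 289.0 and 359.4 (315 ± 38.7), and these groups overlapped. The low control was HepG2 control 2, and the log2 difference of 0.32 (SE 0.34) was 0.11 without it. In Ls174 the controls held 62.6, 122.5 and 121.6 TMM CPM (102 ± 34.4) and the HME cells 38.4, 39.9 and 49.3 (42.5 ± 5.91), with no overlap. Ls174 control 1 was the low control there, and the log2 difference of -1.27 (SE 0.28) was -1.51 without it.

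The APLP2 response in Ls174 minus that in HepG2 was -1.56 on the log2 scale (SE 0.47). Untreated Ls174 cells had 2.56-fold less APLP2 than untreated HepG2 cells, a log2 difference of -1.36 (SE 0.41), the opposite of APP. The 4 groups were ordered HepG2 HME, HepG2 control, Ls174 control and Ls174 HME, and the HepG2 groups were the only neighbours that overlapped.

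APLP1 (ENSG00000105290), the homologue found mainly in neurons, was close to the detection limit. It had 7, 2 and 8 counts in HepG2 control and 12, 4 and 3 counts in HepG2 HME libraries, and 0 counts in all Ls174 libraries. A level of 3 counts corresponds to at most 1.47 TMM CPM in Ls174 control and 1.09 in Ls174 HME libraries, which bounds what a count of 0 allows for counting error alone. APLP1 did not pass the filter on low counts, so no difference was fitted.

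Within a library, APP made up a different share of the precursor counts in each line. The share was 33.6%, 44.03% and 25.2% in HepG2 control (34.3 ± 9.45, n = 3) and 33.8%, 53.8% and 43.0% in HepG2 HME libraries (43.6 ± 10.0). In Ls174 it was 82.6%, 72.8% and 74.1% in control (76.5 ± 5.35) and 71.0%, 73.7% and 67.9% in HME libraries (70.9 ± 2.89). Every Ls174 library had a higher APP share than every HepG2 library, while control and HME shares overlapped in each line. These shares compare counts of transcript ends, which do not scale with transcript length.

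**Figure D2:**
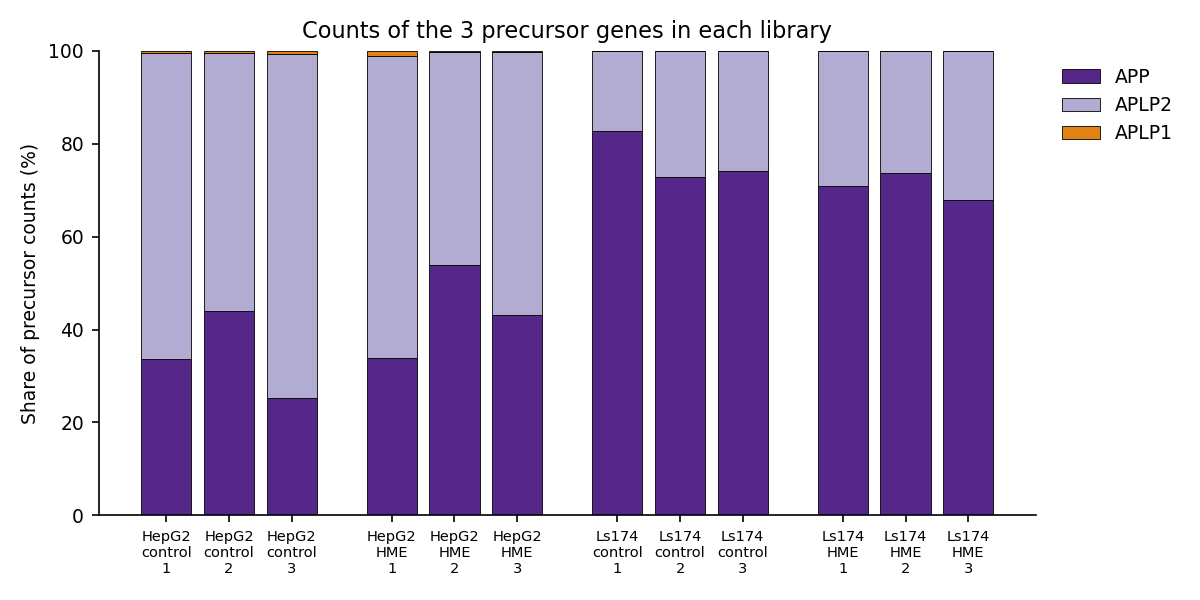
Share of the summed APP, APLP1 and APLP2 counts (percent, y axis) that each gene took in each of the 12 libraries (x axis, by group and replicate). APP took 25.2% to 53.8% in HepG2 and 67.9% to 82.6% in Ls174, and APLP1 appeared only in HepG2.

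ADAM10 (ENSG00000137845), the main alpha-secretase of APP and a sheddase of Notch and cadherins, was lower in HME cells in Ls174 but not apart in HepG2. The HepG2 controls held 31.8, 20.4 and 39.0 TMM CPM and the HepG2 HME cells 27.1, 25.6 and 31.0, and the HME values all fell within the control range. In Ls174 the controls held 45.0, 34.6 and 34.6 (38.0 ± 5.996) and the HME cells 9.78, 14.1 and 13.1 (12.3 ± 2.27), with a wide gap. The log2 difference was -0.11 in HepG2 (SE 0.32) and -1.62 in Ls174 (SE 0.27), the latter 3.08-fold lower. The responses differed by -1.48 (SE 0.43), and the untreated lines by 0.29 (SE 0.35) with overlapping values. Ls174 HME was the only group apart from its neighbour in the order of levels.

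The other alpha-secretases are outside the chosen set, and their tests are edgeR's quasi-likelihood test with Benjamini-Hochberg adjustment over all tested genes. They belong to a wider list of pathway genes drawn up with earlier results of these data known, so their p values are descriptive. ADAM17, which sheds TNF and growth factors as well as APP, had 73.3, 67.9 and 56.0 TMM CPM in Ls174 control and 33.7, 30.7 and 27.8 in Ls174 HME cells. The groups did not overlap, and the log2 difference was -1.10 (SE 0.21, edgeR adjusted p = 0.0504). It was 0.37 in HepG2 (SE 0.35, edgeR adjusted p = 0.568), with 102.1, 145.5 and 92.8 TMM CPM in control and 103.8, 163.7 and 171.9 in HME cells. Without Ls174 control 1 the Ls174 difference was -1.003 with an edgeR adjusted p of 0.00203, and without any 1 of the other Ls174 libraries the edgeR adjusted p lay between 0.0996 and 0.348. The ADAM17 region overlaps one of IAH1 on the opposite strand.

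ADAM9, a further sheddase that can cut APP, was called in Ls174 or not depending on 1 control library. Ls174 control 1 had 5.87 TMM CPM against 51.8 and 49.1 in the other controls, and the HME cells had 23.5, 20.9 and 23.8. The log2 difference was -0.67 in Ls174 (SE 0.59, edgeR adjusted p = 0.65), and -1.14 without that control (edgeR adjusted p = 0.000902). In HepG2 it was 0.26 (SE 0.44, edgeR adjusted p = 0.752).

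BACE2 (ENSG00000182240), a homologue of BACE1 encoded on the same chromosome as APP, was detected almost only in Ls174. It had 0, 0 and 0 counts in HepG2 control and 0, 3 and 1 counts in HepG2 HME libraries. Ls174 controls held 61.6, 65.7 and 80.7 TMM CPM (69.3 ± 10.0) and Ls174 HME cells 48.9, 59.4 and 54.5 (54.3 ± 5.25). The control mean was at least 37.3-fold higher in Ls174 than in HepG2, and the HME mean at least 30.3-fold higher, both against the level of 3 counts in the shallowest library of the HepG2 group (1.86 and 1.79 TMM CPM). All Ls174 HME values were below all controls by a narrow gap, with a log2 difference of -0.36 (SE 0.20). A response of BACE2 in HepG2 could not be measured at this depth, and so neither could the difference of the responses.

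BACE1, the beta-secretase that starts amyloid beta release in neurons, showed the reverse. It had 30, 11 and 33 counts in HepG2 control, 30, 17 and 11 in HepG2 HME, 5, 0 and 0 in Ls174 control and 0, 0 and 0 counts in Ls174 HME libraries. Between the untreated lines BACE1 passed the filter on low counts only through HepG2 and had to be lower in Ls174, so its call is a description. The log2 difference of untreated Ls174 from untreated HepG2 cells was -3.85 (SE 1.12, edgeR adjusted p = 0.0357), and the Ls174 counts all came from control 1, the library that stands apart. Without that library all Ls174 control counts were 0, so the fitted value is no measure of size there, and the call held (edgeR adjusted p = 0.00212). It was lost without any 1 of the other control libraries, with log2 differences of -4.02 to -3.10 and edgeR adjusted p values of 0.0508 to 0.136. The HME difference in HepG2 was -0.19 (SE 0.45, edgeR adjusted p = 0.832).

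The 3 gamma-secretase subunits among the chosen genes had no called difference in either line with all libraries in the fit. PSENEN (ENSG00000205155), which encodes PEN-2, had 14.4, 8.67 and 16.9 TMM CPM in HepG2 control, 11.01, 7.38 and 13.1 in HepG2 HME, 12.7, 19.7 and 24.2 in Ls174 control and 20.6, 19.4 and 16.0 in Ls174 HME cells. No neighbouring groups were apart in its order of levels. Its log2 difference with HME was -0.35 in HepG2 (SE 0.40) and -0.03 in Ls174 (SE 0.30), with 0.35 between the responses (SE 0.51) and 0.47 between the untreated lines (SE 0.43).

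APH1A (ENSG00000117362), the scaffold subunit, had 197, 191 and 195 TMM CPM in HepG2 control and 144, 217 and 183 in HepG2 HME cells. In Ls174 it had 291, 261 and 222 in control and 195, 191 and 204 in HME cells, which did not overlap. The log2 difference was -0.09 in HepG2 (SE 0.30) and -0.40 in Ls174 (SE 0.19), with -0.29 between the responses (SE 0.34). Untreated Ls174 cells had all values above those of untreated HepG2 cells, by 0.37 (SE 0.30).

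NCSTN (ENSG00000162736), which encodes nicastrin, the subunit that admits substrates, was a low gene with a wide spread. It had 24, 10 and 48 counts in HepG2 control, 27, 14 and 11 in HepG2 HME, 8, 31 and 41 in Ls174 control and 16, 2 and 6 counts in Ls174 HME libraries. Control and HME values overlapped in both lines. The log2 difference was -0.50 in HepG2 (SE 0.55) and -1.52 in Ls174 (SE 0.71), and it was 0.22 in HepG2 without control 3. In Ls174 it ranged from -2.55 without HME 1 to -1.06 without HME 2, and it passed an adjusted p of 0.05 without control 1, at -1.82. The responses differed by -0.99 (SE 0.94) and the untreated lines by -0.42 (SE 0.62).

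PSEN2, a catalytic subunit, was tested as a gene outside the chosen set. It had 5.38, 10.5 and 8.65 TMM CPM in Ls174 control and 13.0, 15.9 and 12.7 in Ls174 HME cells, a log2 difference of 0.74 (SE 0.35, edgeR adjusted p = 0.397). The log2 difference was 0.25 in HepG2 (SE 0.44, edgeR adjusted p = 0.767). APH1B, the alternative scaffold subunit, had at most 10 counts in a library and was not tested.

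**Figure D3:**
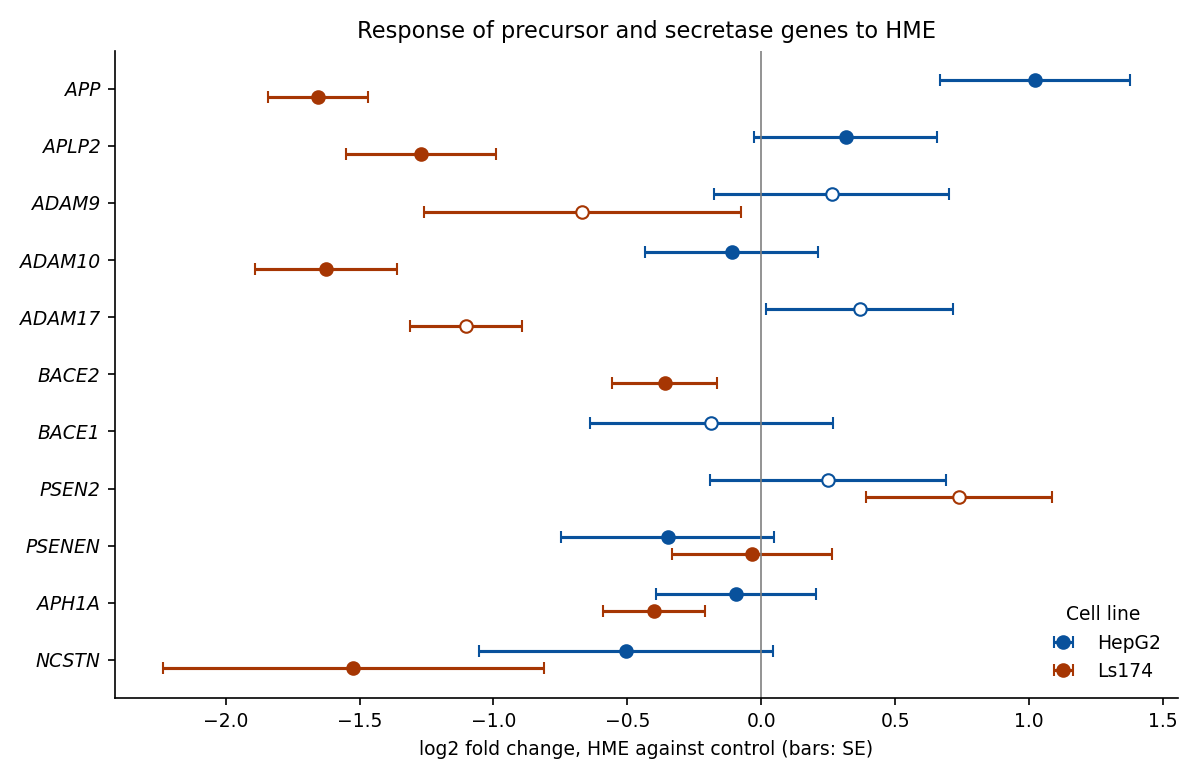
Log2 fold change of HME against control cells (x axis, bars show the SE of the edgeR fit) for precursor and secretase genes tested in HepG2 (blue) or Ls174 (orange); filled points are the chosen genes and open points other secretase genes. APP lies at 1.02 in HepG2 and -1.65 in Ls174, and APLP2, ADAM10, ADAM17 and NCSTN lie at -1.10 or lower in Ls174 and at -0.50 or higher in HepG2.

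Against the background of all genes, the calls among the chosen genes were as follows, and nothing is read from these counts because the same values chose the genes. In HepG2, 6 of the 8 genes passed the filter on low counts, and 0 were called by edgeR at an adjusted p under 0.05, a rule that 3.31% of 11343 tested genes met. By the thresholds of the study (a log2 difference of more than 0.58 with an unadjusted p below 0.05), 1 (APP) was called higher, beside 11.3% of all genes called higher and 10.9% called lower. APP was also the 1 gene whose HME values all exceeded its controls, as 15.5% of genes did. The median log2 difference was -0.10 over the 6 genes and -0.04 over all tested genes. That HepG2 call of APP was lost without control 3, HME 2 or HME 3, where the log2 difference was 0.97, 0.78 and 0.98.

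In Ls174, 7 of the 8 genes were tested. APP and ADAM10 were called lower at an adjusted p under 0.05, a rule met by 0.866% of 11319 genes, and with APLP2 3 were called lower by the thresholds of the study, beside 7.85% of genes lower and 4.11% higher. HME values lay wholly below the controls for 5 (APP, APLP2, ADAM10, BACE2 and APH1A), beside 12.2% of all genes. The median was -1.27 over the 7 genes and -0.00 over all genes. The 2 adjusted calls became 4 without control 1, where 979 of 11673 tested genes met the rule in place of 134 of 11319. They became 0 without control 2, control 3 or any 1 of the HME libraries. Over all genes 2 met the rule without control 2, 10 without control 3 and 0 without any 1 of the HME libraries.

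Between the untreated lines, APP was called higher in Ls174 at an adjusted p under 0.05, beside 9.33% of 11907 genes, and APLP2 lower, beside 14.2%. BACE2 met the rule too, but with 0 counts in all HepG2 controls it passed the filter only through Ls174 and had to be higher there. The APLP2 call held in 5 of 14 alternatives and was lost without HepG2 control 1, HepG2 control 3 or any 1 of the Ls174 controls, with log2 differences of -1.52 to -1.09. The APP call was lost without HepG2 control 3, Ls174 control 2 or Ls174 control 3, with values of 1.26 to 1.31. For the difference of the responses, APP was called at an adjusted p under 0.05 as more negative in Ls174, beside 0.613% of 13040 genes, and APP, APLP2 and ADAM10 by the thresholds of the study, beside 7.42%. BACE2 also met the latter rule, but its fitted value rests on HepG2 libraries at or under 3 counts and is no measure of a difference. The APP call for the responses was lost without Ls174 HME 3, where the value was -2.67. The comparison of untreated lines, the HME comparisons and the difference of the responses share control libraries, so their values stand side by side and are not independent.

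Of 69 further genes of the pathway listed by role (sheddase partners, related intramembrane proteases, adaptors and sorting receptors, amyloid beta degrading enzymes and other secretase substrates), 55 were tested in Ls174 and 53 in HepG2. The list was drawn up with earlier results of these data known, so its counts and shares here and below are a description. In Ls174, 4 of the 55 (7.27%) fell at an edgeR adjusted p under 0.05, beside 0.866% of all genes, and 0 rose, beside 0.318%. By the thresholds of the study 11 (20.0%) were lower and 1 (KAT5, 1.82%) higher, beside 7.85% and 4.11% of all genes. Their median log2 difference was -0.32, beside -0.00 over all genes. The 8 blood cell markers summed to 22.7 to 26.3 CPM in Ls174 control and to 11.6 to 15.7 CPM in Ls174 HME libraries, led by CORO1A, with PTPRC, CD3E and CD14 at 0 in both, and their part in the results was not tested. In Ls174 the endothelial sum was at most 0.697 CPM and the mesenchymal sum at most 7.97 CPM, while the hepatocyte sum reached 143 CPM in control 3 and 60.3 CPM in HME 1.

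Both sorting receptors of APP with a call fell in Ls174. SORL1, which returns APP from endosomes to the Golgi, had 33.2, 16.7 and 21.1 TMM CPM in control and 4.71, 4.59 and 4.90 in HME cells. Its log2 difference was -2.31 (SE 0.37, edgeR adjusted p = 0.0344), against 0.14 in HepG2 (SE 0.35, edgeR adjusted p = 0.832). HepG2 had 21.4, 28.5 and 21.7 TMM CPM in control and 34.6, 23.2 and 20.3 in HME cells, and the responses differed by -2.44 (SE 0.49, edgeR adjusted p = 0.036). That call of the difference held in 8 of 20 alternatives. SORT1, the sorting receptor sortilin, had 66.5, 42.0 and 47.1 TMM CPM in Ls174 control and 14.8, 15.9 and 18.6 in Ls174 HME cells, a log2 difference of -1.66 (SE 0.26, edgeR adjusted p = 0.0344). In HepG2 it was -0.57 (SE 0.30, edgeR adjusted p = 0.29), and the responses differed by -1.07 (SE 0.38, edgeR adjusted p = 0.234).

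MME, the gene of neprilysin, an amyloid beta degrading enzyme of the cell surface, fell from 41.5, 70.7 and 69.7 to 17.7, 23.3 and 18.6 TMM CPM in Ls174, a log2 difference of -1.62 (SE 0.27, edgeR adjusted p = 0.0348). HepG2 had at most 3 MME counts in a library. NOTCH1, the receptor cut by ADAM10 and gamma-secretase, fell from 41.1, 37.3 and 24.2 to 8.33, 6.01 and 8.17 TMM CPM, a log2 difference of -2.18 (SE 0.32, edgeR adjusted p = 0.0302). HepG2 had at most 10 NOTCH1 counts in a library, and the responses differed by -2.37 (SE 0.68, edgeR adjusted p = 0.147). These 4 calls held without Ls174 control 1 and were lost on leaving out any other Ls174 library, with edgeR adjusted p values up to 0.274 for SORL1, SORT1 and MME and 0.273 for NOTCH1. Over all genes 979 of 11673 were called without Ls174 control 1. Without control 2 it was 2, without control 3 it was 10, and without any 1 of the HME libraries 0.

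In HepG2, 0 of the 53 genes were called by edgeR at an adjusted p under 0.05, while DESeq2 called 2. Over all 11343 tested genes edgeR called 375 and DESeq2 1033. By the thresholds of the study 6 were higher (RHBDF1, FURIN, KAT5, BIN1, ECE2 and IL6R) and 5 lower (TSPAN33, SPPL2B, NAE1, LRP1 and CDH1), on unadjusted p values. These shares of 11.3% and 9.43% were near those of all genes, at 11.3% and 10.9%. Their median was 0.08, beside -0.04 over all genes. Without HepG2 control 2, 4 passed the adjusted threshold, beside 921 of 11899 tested genes.

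**Figure D4:**
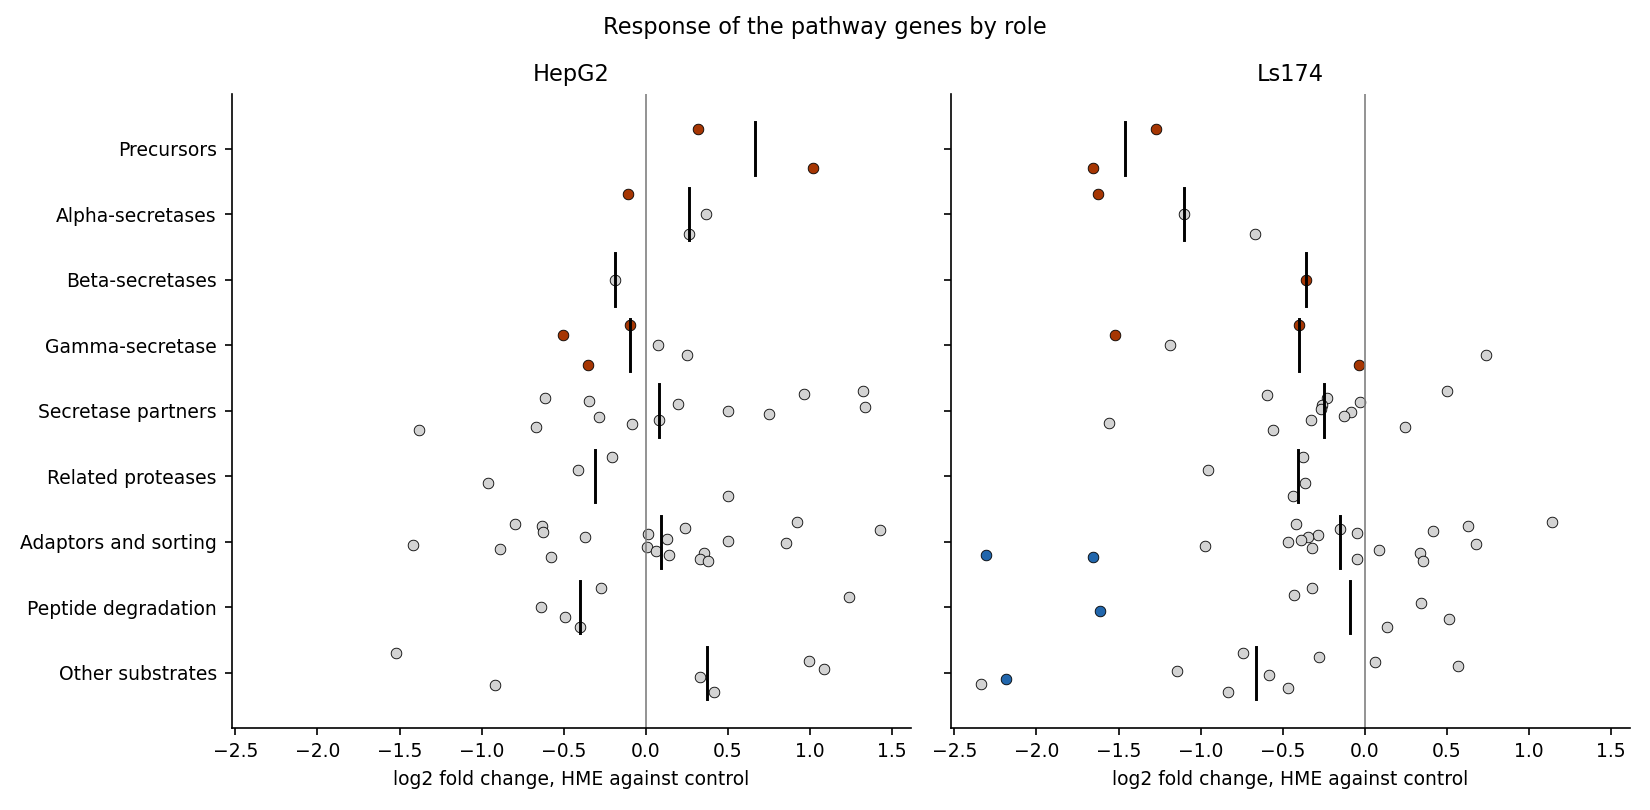
Log2 fold change of HME against control cells (x axis) for each tested pathway gene, by role (y axis), in HepG2 and Ls174; dark orange points are the chosen genes, blue points the other genes with an edgeR adjusted p under 0.05, grey points the rest, and black bars the median of each role. The 4 blue points in Ls174 lie between -2.31 and -1.62, and HepG2 has none.

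Between the untreated lines, 18 of 59 tested pathway genes (30.5%) had an edgeR adjusted p under 0.05, beside 23.5% of all tested genes. In Ls174 8 were higher (TSPAN5, TSPAN15, BIN1, MME, ECE2, NOTCH1, CD44 and SDC3) and 10 lower (BACE1, TSPAN14, TSPAN33, TIMP3, APBB1, LRP1, GGA3, ECE1, ST6GAL1 and IL6R). Of these 18, 8 had at most 3 counts in every control library of 1 line and so passed the filter on low counts only through the other. The filter asks for more than 3 counts, so more of the calls had their direction fixed in this way. BACE1 and TSPAN33 had at most 5 and 7 counts in Ls174 control libraries. SDC3 and NOTCH1 had at most 4 and 10 in HepG2 control libraries, and these genes too passed only through the other line. The HepG2 control counts of BIN1 (15, 8 and 6) would not have passed the filter by themselves either. The 5 tetraspanins that escort ADAM10 and were among the listed genes did not share a direction. TSPAN5 had 1, 2 and 2 counts in HepG2 control and 92, 206 and 199 in Ls174 control libraries. TSPAN15 had 0, 0 and 0 counts in HepG2 control and 11, 30 and 27 in Ls174 control libraries, a mean level at least 3.86-fold higher in Ls174 against the level of 3 counts. TSPAN33 had 25, 41 and 22 counts in HepG2 control and 1, 0 and 7 in Ls174 control libraries. The log2 difference was -1.46 for TSPAN14 (edgeR adjusted p = 0.0175) and 0.17 for TSPAN17 (edgeR adjusted p = 0.817).

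A small part of the counts lay outside the main regions. In HepG2 the main region held 92.6% to 96.1% of APP counts and in Ls174 at least 96.3%. An intronic APP region at chr21:27461630-27461826 (GRCh37) had 15, 9 and 3 counts in HepG2 control and 16, 22 and 22 in HepG2 HME libraries, but 0, 1 and 0 in Ls174 control and 0, 0 and 0 in Ls174 HME libraries. The HepG2 counts were thus present in each library, although Ls174 controls had more APP counts in all. An ADAM10 intronic region at chr15:58947245-58947441 had 0, 0 and 7 counts in HepG2 control, 9, 2 and 5 in HepG2 HME and 0 in all Ls174 libraries.

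HepG2 control 2 also stood apart in the regions of APLP2 and NCSTN, but all its 33 ADAM10 counts lay in the main region. Its main APP region held 92.6% of counts, as in HepG2 HME 1 and HME 3. Ls174 control 1 had all its APLP2, ADAM10 and NCSTN counts in the main regions. For APLP2, a region of coding and intronic sequence at chr11:129991509-129991875 took 20.3% of counts in HepG2 control 2 (exact Clopper-Pearson 95% interval 15.6 to 25.8), against 5.78% and 1.38% in the other controls and 4.13% to 5.32% in HME libraries. For NCSTN, 8 of the 10 counts of HepG2 control 2 fell outside the main region (exact Clopper-Pearson 95% interval 44.4% to 97.5%). These intervals cover counting error only, since reads are not independent molecules without molecular identifiers.

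**Figure D5:**
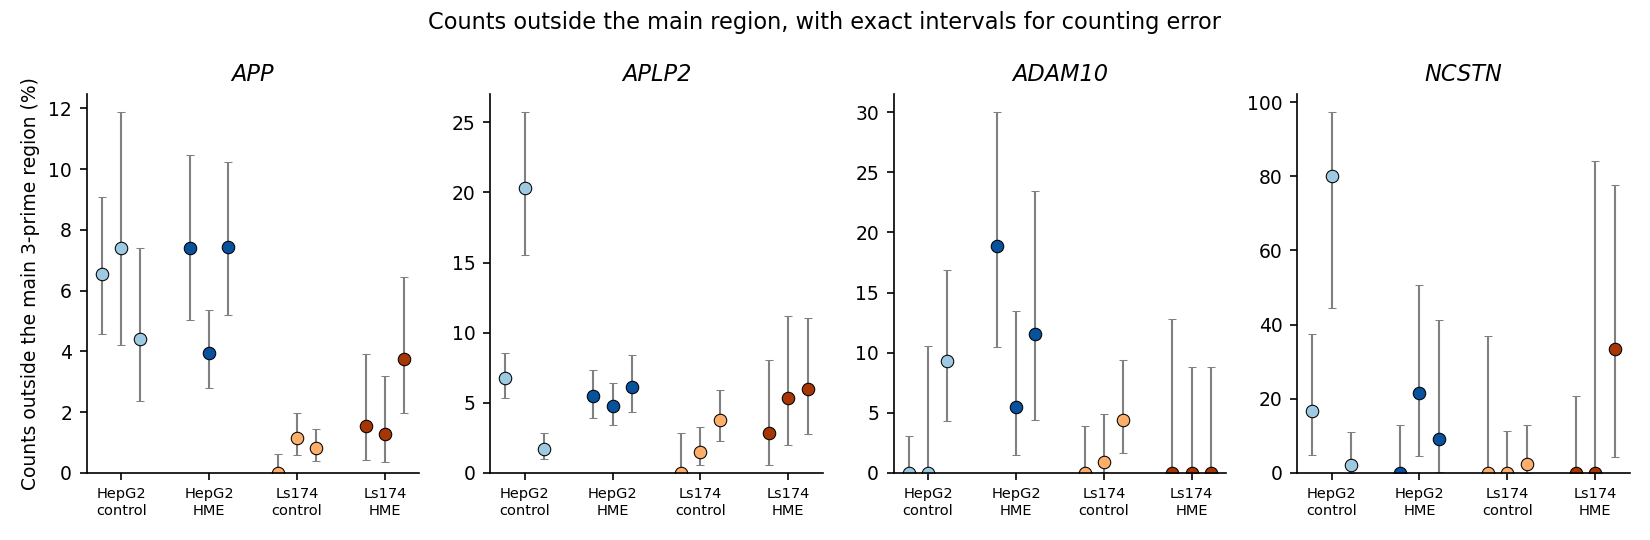
Percent of a gene's counts outside its main 3′ region (y axis, its own range in each panel) in each library of the 4 groups for APP, APLP2, ADAM10 and NCSTN; bars are exact 95% intervals for counting error. HepG2 control 2 stands out for APLP2 at 20.3% and NCSTN at 80.0%.

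The patterns most like those of APP, APLP2 and ADAM10 were sought among 9871 genes tested in both lines, by Pearson's r of log2 CPM over the 12 libraries after the mean of each line was removed. For APP they included ACSL3 (0.93), CYP51A1 (0.92), LRRD1 (0.92) and ITGB5 (0.91). LRRD1 shares its region with CYP51A1 and so its reads. For APLP2 they were PVRL3 (0.98), LGALS3BP (0.92), ANO6 (0.91), FAT1 (0.91) and TFRC (0.90), and for ADAM10 LRP10 (0.95), SOAT1 (0.95), ITGAV (0.93), TMEM164 (0.93) and SLC16A1 (0.93). By the same measure, r was 0.75 between APP and APLP2, 0.72 between APP and ADAM10, 0.78 between APLP2 and ADAM10, and -0.22 between APP and PSENEN. These are descriptions, since the points share their libraries, depth and treatment groups.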

How the data were processed

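RNA from 12 cultures was made into 3′ libraries with the QuantSeq kit and read on an Ion Proton instrument. Reads were checked with FASTQC, aligned to hg19 with Hisat2 and counted with metaseqR2, whose version is not given in the sources used here. The submitters' processing notes also name Bowtie2, Trimmomatic and GRCh37. The files deposited by the authors hold raw counts, the number of reads in each of 144910 3′ regions per library, without normalization.

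Regions of a gene were summed here, and reads in regions shared with another gene count for each. The main test was edgeR 4.0.16 with its quasi-likelihood F test, TMM scaling and the filterByExpr filter, in R 4.3.3, with Benjamini-Hochberg adjustment over all tested genes. HepG2, Ls174 and the untreated lines were fitted with 6 libraries each and the interaction of line and treatment with all 12, without covariates. The SE was derived from the F statistic. The fits were tested on simulated data. Displayed levels are TMM CPM over 12 libraries. Correlations were taken on log2 CPM (prior count 2). The floor is 3 counts, and shares carry exact 95% intervals. Depth was 1790841 to 3656662 counts, so low genes such as NCSTN are imprecise. P values measure the spread between 3 samples per group.

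The members and lists were chosen with earlier results of these data known. Named are the 8 members, the other secretase genes, pathway genes with an adjusted p under 0.05 in an HME comparison or the interaction, and the 5 genes most like APP, APLP2 and ADAM10. Some genes that this rule names are not reported here. Genes named beside counts of study calls and calls between lines, and the APP, ADAM10, APLP2 and NCSTN regions, were chosen after their values were seen. Alternatives were DESeq2 1.42.0, other scaling (RLE, library size, upper quartile), no filter or at least 10 counts in every library, the replicate number as a block, shared regions left out, 1 fit of 12 libraries, merged regions and each library left out. Replicate numbers were taken as names only. Tables and figures used Python 3.11.15, pandas 2.3.3 and matplotlib 3.10.9. Sequences came from GRCh37 with GENCODE annotation and from RefSeq.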

Additional observations from a re-analysis of the deposited data

Results flagged for a closer look

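The response of APP differed between the lines. The log2 difference in Ls174 minus that in HepG2 was -2.66 (SE 0.40), with 3 of 3 HME libraries above all controls in HepG2 and 3 of 3 below all controls in Ls174. APP was chosen on these values, so this is a description.

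SORL1 also differed, by -2.44 (SE 0.49, edgeR adjusted p = 0.036 over all genes for the interaction of line and treatment). In Ls174, 3 of 3 HME libraries were below all controls, while control and HME values overlapped in HepG2. Leaving out 1 library gave edgeR adjusted p values from 0.0301 to 0.138. The call held without HepG2 control 2, Ls174 control 1 or Ls174 control 2 and was lost without any 1 of the others. Over all alternatives it held in 8 of 20.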

How the results depend on the processing

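Counts of calls at an adjusted p under 0.05 depended most on the processing. With 1 fit of 12 libraries, 1 member was called in HepG2 in place of 0, and 2 in place of 1 by the thresholds of the study. Over all 13040 genes tested in that fit, 807 and 3070 were called in HepG2 by these rules. DESeq2 called 2 other pathway genes in HepG2, 9 in Ls174 and 3 in the interaction, where it also called 3 members. Over all genes DESeq2 called 1033 of 11343 in HepG2, 438 of 11319 in Ls174 and 397 of 13040 in the interaction. Without a filter, 3 other pathway genes were called in HepG2 and 7 in Ls174, beside 1407 of 24458 and 604 of 22568 of all genes. Scaling by library size called 1 other pathway gene in HepG2 and 0 in the interaction, and upper quartile scaling 0 in the interaction. Over all genes these settings called 406 of 11343, 49 of 13040 and 72 of 13040. With at least 10 counts in every library, 1 member and 3 other pathway genes were called between the untreated lines, beside 912 of 7618 genes.

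Same-numbered libraries did not deviate together (correlations -0.167, 0.0884 and -0.124 in HepG2 and -0.0363, -0.0078 and -0.0541 in Ls174), so a number does not pair samples. With the replicate block, 0 members and 0 other pathway genes were called in Ls174, in the interaction and in HepG2, at fewer residual degrees of freedom. Between the untreated lines the block gave 1 member and 12 other genes. Over all genes it called 0 of 11319 in Ls174, 16 of 13040 in the interaction and 349 of 11343 in HepG2. Between the untreated lines it called 1890 of 11907 genes.

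By the thresholds of the study, leaving out 1 library gave 0 to 1 member in HepG2, 3 to 4 in Ls174 and in the interaction, and 3 between the untreated lines. Over all tested genes it gave 1735 to 2874, 838 to 1824, 1341 to 2161 and 3521 to 4933 calls in these comparisons. At an adjusted p under 0.05 leaving out 1 library gave 0 members and 0 to 4 other pathway genes in HepG2, beside 95 to 921 of all genes. In Ls174 it gave 0 to 4 members and 0 to 14 other genes, beside 0 to 979 of all genes. Between the untreated lines it gave 1 to 3 members and 13 to 24 other genes, beside 2134 to 3367 of all genes. In the interaction it gave 0 to 1 member and 0 to 2 other genes, beside 17 to 143 of all genes.

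Log2 differences near 0 changed sign, and so did those of BACE1 (-3.63) and MME (-1.26) in the interaction, which were not near 0. On leaving out 1 library the range in HepG2 was -0.27 to 0.0885 for ADAM10, -0.23 to 0.0737 for APH1A, -0.86 to 0.22 for NCSTN, -0.0677 to 0.66 for PSEN2, -0.54 to 0.13 for BACE1, -0.0545 to 0.78 for ADAM9 and -0.0949 to 0.35 for SORL1. It was -0.23 to 0.18 for PSENEN in Ls174, -0.72 to 0.30 for NCSTN and -0.36 to 0.14 for SORL1 between the untreated lines, and -4.31 to 0.21 for BACE1 and -4.39 to 1.59 for MME in the interaction. With scaling by library size it was 0.16 for SORL1 between the untreated lines, and with upper quartile scaling 0.0694 for SORL1 between the lines. Without Ls174 control 1 all Ls174 BACE1 counts were 0. Without HepG2 control 1 or HepG2 HME 2, MME had 0 counts in the rest of that HepG2 group. The fitted interaction values of these genes are no measure of size there. The cause of the other changes of sign was not tested. Of the other values for single genes under an alternative, 784 kept direction and side of the threshold, 70 lost a call and 17 gained one. Low counts limit NCSTN, APLP1, BACE1 and APH1B most.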
